A study of Mus musculus with 10 samples.

Results

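The genes described here write, read or recruit methylation of lysine 9 of histone H3 (H3K9), a mark of silent chromatin. The set holds 9 genes of the 36806 listed in each of the authors' deposited tables and found there by symbol. Suv39h1, Suv39h2, Setdb1, Ehmt1 and Ehmt2 encode methyltransferases, Cbx1, Cbx3 and Cbx5 encode HP1 proteins, and Trim28 encodes a corepressor. All 9 symbols were found in all 4 tables, and the authors tested every one of them in each table. The series holds 10 libraries of male C57BL/6 mice that lack Ago4 (Ago4-/-) or carry it (Ago4+/+). Ago4 encodes an Argonaute protein, a binder of small RNAs. Each genotype gave 1 mRNA library of leptotene/zygotene cells and 1 of pachytene cells, both at 70 days of age, and 1 each of whole testis at 3 and at 8 days. The 2 small RNA libraries of pachytene cells are not analysed here.

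H3K9 methylation works as a cycle of writing and reading. SUV39H1 and SUV39H2 place the trimethyl mark on pericentric heterochromatin. EHMT1 (also called GLP) and EHMT2 (G9a) act as a heterodimer that places mono- and dimethylation, mostly within euchromatin. SETDB1 trimethylates H3K9 where TRIM28 (KAP1), bound to KRAB zinc finger proteins, brings it to DNA. HP1 proteins bind the methylated tail through a chromodomain; Cbx5 encodes HP1 alpha, Cbx1 HP1 beta and Cbx3 HP1 gamma. In the male germline these proteins are studied for heterochromatin, for silencing of retroelements and for the sex body, the silenced domain that the X and Y chromosomes form during meiosis. Suv39h2 is known as the testis-expressed partner of Suv39h1, and Ehmt2 is needed for normal meiotic prophase in mice.

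The promoters of Trim28, Ehmt1 and Cbx5 are shown because these 3 genes passed the authors' test between the conditions at day 3, and that of Ehmt2 because it is the partner of Ehmt1 and did not pass there. Each is a RefSeq window on GRCm38.p6, running from 250 bases before the gene's start to 50 after it, printed 5′ to 3′ on the gene's strand. Capitals mark a cyclic AMP response element (CRE, TGACGTCA), an E-box (CACGTG), an NRF1-type core (CGCANGCG) or a CCAAT box (CCAAT), each searched on both strands. No marked match overlaps another. The windows lie at chr7:13023902-13024201, plus strand (Trim28), chr2:24919560-24919859, minus strand (Ehmt1), chr17:34898224-34898523, plus strand (Ehmt2), and chr15:103239803-103240102, minus strand (Cbx5).
Trim28: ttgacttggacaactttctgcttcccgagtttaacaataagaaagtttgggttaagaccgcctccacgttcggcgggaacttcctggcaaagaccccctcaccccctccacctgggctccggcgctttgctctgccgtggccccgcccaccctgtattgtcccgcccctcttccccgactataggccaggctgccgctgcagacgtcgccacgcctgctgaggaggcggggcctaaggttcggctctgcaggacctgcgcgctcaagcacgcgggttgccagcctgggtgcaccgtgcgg
Ehmt1: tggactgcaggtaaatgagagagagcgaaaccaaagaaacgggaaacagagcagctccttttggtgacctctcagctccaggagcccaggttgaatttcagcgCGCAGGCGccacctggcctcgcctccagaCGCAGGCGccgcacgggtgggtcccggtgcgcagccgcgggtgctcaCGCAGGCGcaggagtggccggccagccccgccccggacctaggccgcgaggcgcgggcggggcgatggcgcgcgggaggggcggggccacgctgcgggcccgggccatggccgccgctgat
Ehmt2: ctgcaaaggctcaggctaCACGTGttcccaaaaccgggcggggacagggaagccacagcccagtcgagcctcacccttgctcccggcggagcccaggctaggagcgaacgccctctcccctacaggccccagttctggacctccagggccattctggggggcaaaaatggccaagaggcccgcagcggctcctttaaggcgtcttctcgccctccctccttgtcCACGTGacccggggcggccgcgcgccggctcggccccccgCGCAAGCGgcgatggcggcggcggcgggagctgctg
Cbx5: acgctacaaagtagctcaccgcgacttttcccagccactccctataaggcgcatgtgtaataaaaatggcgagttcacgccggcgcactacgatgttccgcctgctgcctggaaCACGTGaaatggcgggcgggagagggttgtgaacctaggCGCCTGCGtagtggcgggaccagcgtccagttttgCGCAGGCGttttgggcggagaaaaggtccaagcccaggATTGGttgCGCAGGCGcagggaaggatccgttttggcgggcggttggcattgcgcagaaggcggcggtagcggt

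The window of Trim28 held none of the marked motifs. Those of Ehmt1 and Cbx5 held 3 NRF1-type cores each, and that of Ehmt2 held 1. Cbx5 and Ehmt2 each have a further window in the RefSeq table: that of Cbx5 (chr15:103215303-103215602) holds none of the marked motifs, and that of Ehmt2 (chr17:34898720-34899019) holds 1 E-box and no core. The windows shown were chosen with these matches known. The core was found in 5 of the 13 windows of the 9 genes, 1 window each for Suv39h1, Suv39h2, Ehmt1, Ehmt2 and Cbx5, against 8.21% of the 32851 windows in the RefSeq table. E-boxes were found in 3 of the 13 (Ehmt2 and Cbx5), against 7.15% of all windows, and a CRE in 1 (Suv39h2), against 1.79%. CCAAT boxes were found in 3 (Suv39h1, Setdb1 and Cbx5), against 37.4%. A GC box (GGGCGG, not marked) was found in 12 of the 13 windows, against 35.7% of all windows, and a TATA box (TATAAA) in 0 of 13, against 13.6%. The windows shown are 64.0% G and C for Trim28, 71.7% for Ehmt1, 70.3% for Ehmt2 and 60.3% for Cbx5, and the median of all windows is 52.7%. A match is a string of letters, and no binding was measured.

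Each of the authors' deposited tables sets a second condition against a first, in material named day 3, pre-meiotic, leptotene/zygotene or pachytene. The labels and headers used here do not say which condition is Ago4-/-, so every log2 fold is second over first and carries no genotype. No label ties the pre-meiotic table to the age of 3 or of 8 days. Ago4, listed as Eif2c4, had log2 folds of 0.46 at day 3 (q = 0.420), 0.40 pre-meiotic (q = 0.672), 0.96 at leptotene/zygotene (q = 0.0385) and 1.48 at pachytene (q = 0.000147) by Cuffdiff in the authors' deposited tables. It was above 0 in all 4 tables, and no genotype was taken from it. Calls are those of Cuffdiff at a q-value of at most 0.05. With 1 library a condition the spread between animals was not measured. The error given with a fold is the one its test statistic implies (fold over statistic), and each 95% interval is built from it. An interval within 1.5-fold thus describes the libraries compared and leaves out variation between animals. Levels per condition are not used, so the stage names could not be checked against marker levels. Sequencing depth is unknown.

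At day 3 Trim28 was higher in the second condition, and Ehmt1 and Cbx5 were lower. The log2 fold of Trim28, the recruiter of SETDB1 (chr7:13609501-13616384 in the tables' coordinates), was 0.51 with an implied error of 0.11, or 1.43-fold (q = 4.36e-05, Cuffdiff, authors' deposited table). Ehmt1 (chr2:24646289-24775129) fell by 0.60 on the log2 scale, 1.52-fold (implied error 0.12, q = 1.49e-05, Cuffdiff, authors' deposited table). Cbx5 (chr15:103021975-103070247) fell by 0.87, 1.83-fold (implied error 0.21, q = 0.00053, Cuffdiff, authors' deposited table). So 1 writer, 1 reader and 1 recruiter passed, in both directions. These 3 of 9 genes stand against 14.8% of the 24020 genes tested in the authors' deposited table, 1152 of them higher and 2395 lower. All 9 have an implied error of at most 0.5 here. Among the 15901 autosomal genes within that limit, 6.52% were called higher and 13.2% lower. Past 1.5-fold either way were 2 of the 9, Ehmt1 and Cbx5, where 35.6% of all genes with a finite ratio were and 27.3% of those with an implied error of at most 0.5. The median log2 fold of the 9 genes was 0.04, beside 0.03 for all tested genes.

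The other 6 genes did not pass at day 3, in the authors' deposited table. Of the trimethylating enzymes, Suv39h1 (chrX:7626298-7651886) had a log2 fold of 0.15 (implied error 0.18), Suv39h2 (chr2:3341403-3392303) one of 0.04 (implied error 0.19) and Setdb1 (chr3:95111594-95161124) one of -0.04 (implied error 0.17) in the authors' deposited table. Ehmt2 (chr17:35035414-35050997), the partner of Ehmt1, had 0.02 with an implied error of 0.078 (q = 0.904, Cuffdiff, authors' deposited table), among the narrowest errors of the table: 99.987% of genes had a wider one. The HP1 genes Cbx1 (chr11:96650441-96669954) and Cbx3 (chr6:51420359-51433703) had 0.18 (implied error 0.23) and 0.27 (implied error 0.16) in the authors' deposited table. The 95% intervals of 5 of these 6 lay within 1.5-fold on both sides; that of Cbx1 reached 0.62 on the log2 scale.

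**Figure D1:**
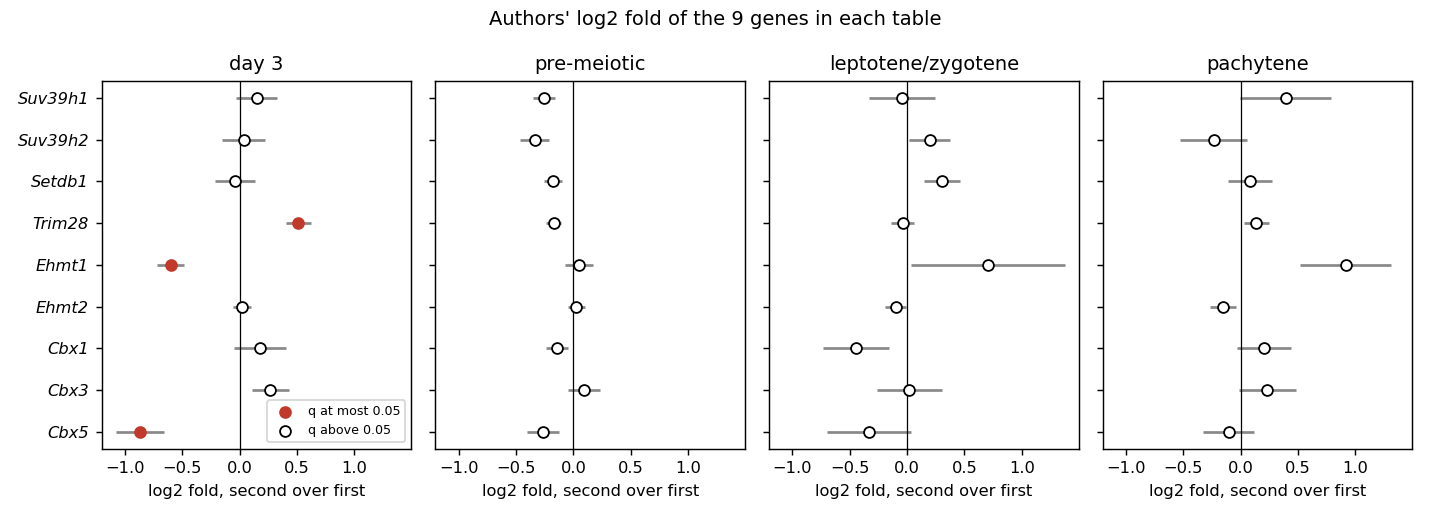
Authors' log2 fold of the second over the first condition (x axis) for the 9 genes in each table, with bars of 1 implied error to each side; filled points have q at most 0.05. Calls appear at day 3 only, for Trim28 (0.51), Ehmt1 (-0.60) and Cbx5 (-0.87), and the bars of Ehmt1 are widest at leptotene/zygotene (0.67).

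At day 3 the log2 folds differed within some pairs of related genes. The difference between the log2 folds of a pair is the change of their ratio between the conditions and does not depend on how a library was scaled, though it can depend on locus length, as given further on. Ehmt1 minus Ehmt2 was -0.62 (combined error 0.14, 95% interval -0.90 to -0.34), from the authors' deposited table. Trim28 minus Setdb1 was 0.55 (combined error 0.20, interval 0.15 to 0.95). Among the HP1 genes, Cbx5 minus Cbx1 was -1.05 (interval -1.65 to -0.44) and Cbx5 minus Cbx3 was -1.14 (interval -1.65 to -0.63), from the authors' deposited table. The pairs Suv39h1 minus Suv39h2, at 0.11 (interval -0.40 to 0.62), and Cbx1 minus Cbx3, at -0.09 (interval -0.63 to 0.45), had intervals that held 0. These 6 pairs were set up with the day 3 folds known. Each pair whose interval leaves out 0 sets a called gene beside one not called, so the differences are a description.

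**Figure D2:**
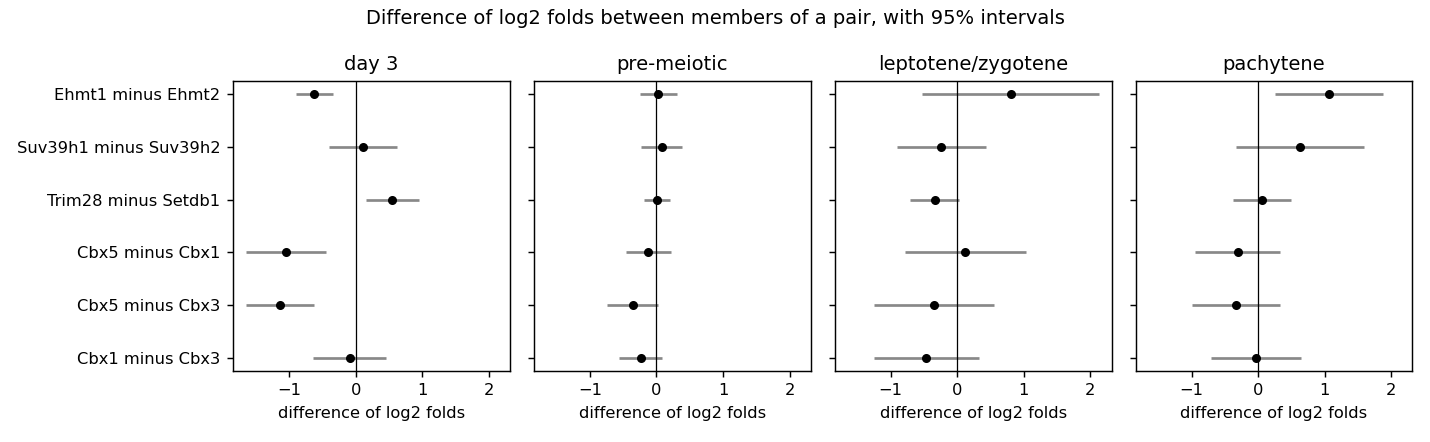
Difference of log2 folds (x axis) within 6 pairs of genes in each table, with 95% intervals from the combined implied errors. At day 3 the intervals of 4 pairs leave out 0, from -1.14 for Cbx5 minus Cbx3 to 0.55 for Trim28 minus Setdb1; in the other 3 tables only that of Ehmt1 minus Ehmt2 at pachytene (1.07) does.

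Folds at day 3 ran with the length of the listed locus. A listed locus can cover other genes, as those of Suv39h1, Suv39h2, Setdb1 and Cbx1 do, so its length need not be the gene's own. Among genes with an implied error of at most 0.5, loci of up to 10000 bp had a median log2 fold of 0.31, with 9.68% called higher and 2.3% lower, in the authors' deposited table. Loci over 100000 bp had a median of -0.26, with 2.53% called higher and 28.5% lower, in the authors' deposited table. Trim28 spans 6884 bp, and 70.8% of its length class had a lower fold. Ehmt1 spans 128841 bp, and 32.0% of its class had a lower fold. Cbx5 spans 48273 bp, and 5.26% of its class (10000 to 50000 bp, median 0.04) had a lower fold. Measured from the median of its class, the fold of Trim28 was 0.20, that of Ehmt1 was -0.34 and that of Cbx5 was -0.92. Cbx5 was then the 1 member past 1.5-fold. Measured in this way, the difference Trim28 minus Setdb1 was 0.28 with an interval that held 0 (-0.12 to 0.68), and Ehmt1 minus Ehmt2 was -0.31 (interval -0.59 to -0.04). Cbx1 (19514 bp) and Cbx3 (13345 bp) lie in the length class of Cbx5. The same median is thus taken from each, so Cbx5 minus Cbx1 (-1.05) and Cbx5 minus Cbx3 (-1.14) stay as they were by construction. Lengths within a class were not compared. In the pre-meiotic table the class medians ran only from -0.02 to 0.0037, at leptotene/zygotene from -0.07 to -0.06 and at pachytene from -0.04 to 0.09. The part of locus length in the day 3 calls was not tested.

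**Figure D3:**
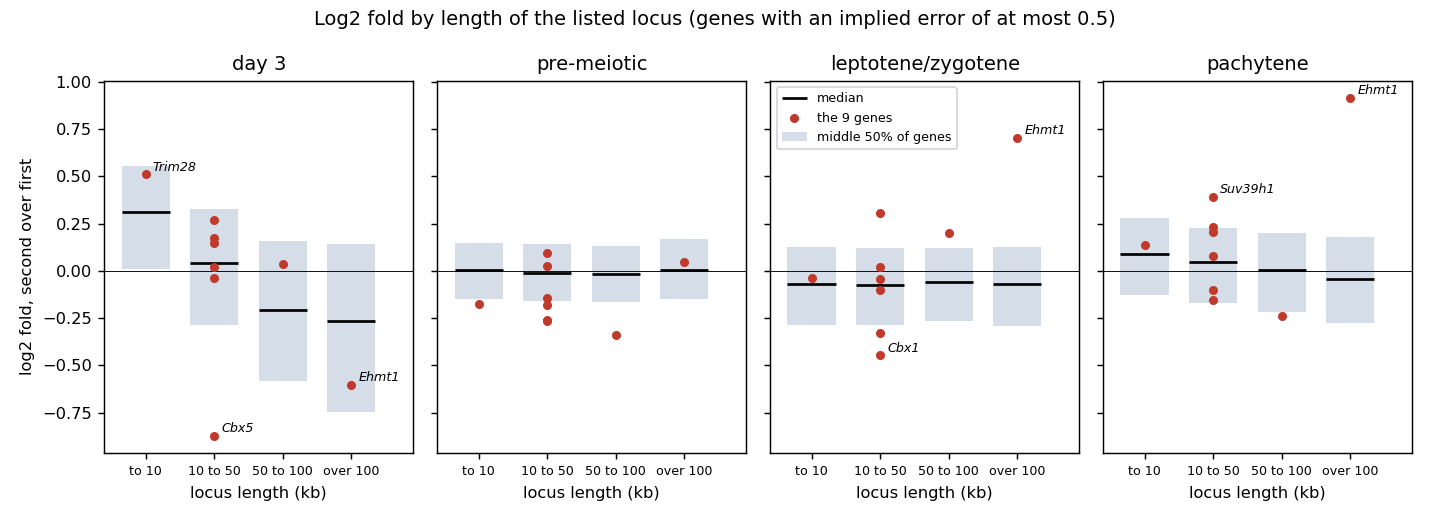
Log2 fold (y axis) by length of the listed locus in kb (x axis) in each table, as the middle 50% of genes (bars), their median (black lines) and the 9 genes (points). At day 3 the median goes from 0.31 in the shortest class to -0.26 in the longest; Cbx5 (-0.87) lies below the bar of its class, while Trim28 (0.51) and Ehmt1 (-0.60) lie inside theirs.

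Markers of the material moved at day 3 too. All 7 spermatogonia and meiotic entry markers had log2 folds below 0, from -1.84 to -0.11 with a median of -0.74, and 3 were called lower (Gfra1, Zbtb16 and Kit), in the authors' deposited table. Leptotene and zygotene markers had a median of -0.34 over 9 genes, 6 of them below 0. Called lower were 2, Prdm9 at -1.44 and Meiob at -1.45 (Cuffdiff, authors' deposited table). Pachytene markers had a median of -0.30 over 6 with a finite ratio, 3 of them below 0. Called lower were 2, Piwil1 at -1.22 and Mybl1 at -0.67 (Cuffdiff, authors' deposited table). Of the round spermatid markers 0 were called. Sertoli markers had a median of 0.04 over 7 genes, with Wt1 called lower. Leydig markers had a median of -0.31 over 6 genes, with 1 called higher and 2 lower, and endothelial markers one of -0.50 over 5, with 2 called lower (authors' deposited table). Macrophage markers had a median of 0.25, with 2 of 5 called higher (Cd68 and Cd74), red cell markers one of 0.18, with 1 of 5 called higher (Hbb-b1), and myoid markers one of 0.22, with Des called higher and Myh11 lower (authors' deposited table). Gfra1, Zbtb16 and Kit have loci over 50000 bp, in length classes where 22.4% and 28.5% of genes were called lower. The other genes of their list have shorter loci and also lay below 0, without a call. Prdm9, Meiob, Piwil1 and Mybl1 have loci between 10000 and 50000 bp, a class where 9.9% of genes were called lower. In whole testis, fewer cells of a type and less RNA per cell cannot be told apart. The part of locus length in the marker folds was not tested, nor was that of cell makeup in the folds of Trim28, Ehmt1 and Cbx5.

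In the pre-meiotic table the 9 genes had small folds between the conditions, and most lay below 0. By Cuffdiff 0 of 9 were called, where 1.15% of 20154 tested genes were (authors' deposited table). The 95% intervals of all 9 lay within 1.5-fold, and 0 of 9 were past that fold, where 19.0% of all genes with a finite ratio were. Among genes with an implied error of at most 0.5, as all 9 have here, that share was 5.63%. The median of the 9 was -0.17, beside -0.0048 for all tested genes, and 6 of 9 were below 0. At an unadjusted p of at most 0.05, 4 of the 9 were lower, where 5.32% of tested genes were called lower at that limit.

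Within this set, those 4 are the 3 genes of trimethylating enzymes and the recruiter. Suv39h2 had a log2 fold of -0.34 (implied error 0.13, p = 0.00722, q = 0.217) by Cuffdiff in the authors' deposited table. Suv39h1 had -0.26 (implied error 0.097, p = 0.00768, q = 0.223), Setdb1 -0.18 (implied error 0.078, p = 0.0205, q = 0.347) and Trim28 -0.17 (implied error 0.066, p = 0.00864, q = 0.232), by Cuffdiff in the authors' deposited table. None of the 4 passed once all genes were counted. Cbx5 had -0.27 (implied error 0.14), Cbx1 -0.14 (implied error 0.094) and Cbx3 0.09 (implied error 0.14), in the authors' deposited table. The euchromatic pair was nearest to 0, with 0.05 for Ehmt1 (implied error 0.12) and 0.02 for Ehmt2 (implied error 0.075), in the authors' deposited table. All 6 pair differences had intervals that held 0; that of Trim28 minus Setdb1 was 0.0072 (interval -0.19 to 0.21).

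Leptotene and zygotene markers were lower in the same condition. All 9 were below 0, with a median log2 fold of -0.89 and a range from -2.48 to -0.25, and 5 were called (authors' deposited table, Cuffdiff). Dmc1, the meiotic recombinase, stood at -0.90 (q = 1.34e-06), Sycp3, of the synaptonemal complex, at -0.89 (q = 1.21e-10), and Prdm9, the H3K4 methyltransferase of recombination hotspots, at -1.0 (q = 0.013), by Cuffdiff in the authors' deposited table. Stra8, needed for entry into meiosis, stood at -0.66 (q = 8.29e-10), though the spermatogonia and meiotic entry list had a median of 0.14. Red cell markers were higher, with 4 of 5 called and a median of 0.71, and Amh, of Sertoli cells, at 0.38 (q = 0.0392, Cuffdiff, authors' deposited table). The part of cell makeup in the folds of the 9 genes was not tested.

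At leptotene/zygotene 0 of 9 genes were called, where 2.14% of 19524 tested genes were (authors' deposited table, Cuffdiff). At an unadjusted p of at most 0.05 there were also 0 of 9, where 11.5% of tested genes passed. Ehmt1 alone was past 1.5-fold, as were 29.4% of all genes with a finite ratio and 11.3% of those with an implied error of at most 0.5. Its log2 fold was 0.70 with an implied error of 0.67 (q = 0.748, Cuffdiff, authors' deposited table). The interval of Ehmt1 ran from -0.61 to 2.02. Setdb1 had 0.30 (implied error 0.16, p = 0.0564, q = 0.457) and Suv39h2 0.20 (implied error 0.18, q = 0.724), by Cuffdiff in the authors' deposited table. Below 0 stood Cbx1 at -0.45 (implied error 0.29, q = 0.591) and Cbx5 at -0.33 (implied error 0.37, q = 0.795), by Cuffdiff in the authors' deposited table.

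Trim28 and Ehmt2, the members with the narrowest errors, were near 0 there. Setdb1 and Suv39h2, next in that order, stood at 0.30 and 0.20 as given above. Trim28 had -0.04 (implied error 0.099) and Ehmt2 -0.10 (implied error 0.091), and Suv39h1 had -0.04 with a wider error of 0.29, in the authors' deposited table. Cbx3 had 0.02 (implied error 0.28). The intervals of 4 of the 9 (Ehmt2, Suv39h2, Cbx3 and Trim28) lay within 1.5-fold on both sides, and for the other 5 a change of that size lies inside the interval. The median of the 9 was -0.04, beside -0.07 for all tested genes.

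At pachytene 0 of 9 genes were called, where 1.63% of 22322 tested genes were (authors' deposited table, Cuffdiff). Ehmt1 was the 1 gene past 1.5-fold, as were 30.8% of all genes with a finite ratio and 12.2% of those with an implied error of at most 0.5. It was also the 1 gene with an unadjusted p of at most 0.05. At that limit 11.3% of tested genes passed in either direction, and 4.25% were higher. Its log2 fold was 0.92, 1.89-fold (implied error 0.40, p = 0.0212, q = 0.304) by Cuffdiff in the authors' deposited table. Ehmt2, its partner, stood at -0.15 (implied error 0.12, q = 0.660, Cuffdiff, authors' deposited table). The difference Ehmt1 minus Ehmt2 was 1.07 (combined error 0.41, interval 0.26 to 1.88), from the authors' deposited table, while at day 3 it was below 0. The condition order of one table need not be that of another, so these signs are not set against each other.

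The remaining genes at pachytene had smaller folds. Suv39h1 had 0.39 (implied error 0.39) and Suv39h2 -0.24 (implied error 0.29), with a difference of 0.63 whose interval ran from -0.34 to 1.59, in the authors' deposited table. Setdb1 had 0.08 (implied error 0.19) and Trim28 0.14 (implied error 0.11). The HP1 genes had 0.21 for Cbx1 (implied error 0.24), 0.23 for Cbx3 (implied error 0.25) and -0.10 for Cbx5 (implied error 0.22), in the authors' deposited table. The intervals of Ehmt2, Setdb1, Cbx5 and Trim28 lay within 1.5-fold, and those of the other 5 did not. The median of the 9 was 0.14, beside 0.03 for all tested genes.

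Markers of some somatic cells were called higher in the second condition of these tables, most often those of myoid cells. At leptotene/zygotene 4 of 5 myoid markers were called higher, with a median log2 fold of 2.11 and a range from -0.86 to 4.77, and 4 of 5 red cell markers, with a median of 3.05 and a range from 1.82 to 3.58 (authors' deposited table, Cuffdiff). Of 5 macrophage markers 2 were called higher, and of 5 endothelial markers 1, with a median of 1.23. At pachytene 3 of 5 myoid markers (median 1.26), 3 of 5 endothelial markers (median 2.11), 1 of 5 macrophage markers and 0 of 5 red cell markers (median 2.03) were called higher, in the authors' deposited table. Acta2, of myoid cells, stood at 2.17 and 1.49 in the leptotene/zygotene and pachytene tables, and Pecam1, of endothelium, at 1.1 (q = 0.711) and 2.48 (q = 0.00111), by Cuffdiff in the authors' deposited tables. Germ cell lists had few calls, all lower. The leptotene and zygotene markers had medians of 0.10 in both tables, with Sycp1 called lower at pachytene, at -1.03 (q = 0.00324), while Sycp3 stood at -0.35 (q = 0.315) and 0.10 (q = 0.916), by Cuffdiff in the authors' deposited tables. The pachytene markers had medians of -0.19 and -0.0034, with Piwil1 called lower at leptotene/zygotene, at -0.59 (q = 0.0402, Cuffdiff, authors' deposited tables). The round spermatid markers had medians of 0.19 in both, with Spaca1 called lower at leptotene/zygotene, at -0.46 (q = 0.0241), while Prm1 stood at 0.22 (q = 0.692) and 0.67 (q = 0.0542), by Cuffdiff in the authors' deposited tables. Among Sertoli and Leydig markers no gene was called in either table. The Sertoli medians were -0.56 at leptotene/zygotene and 0.38 at pachytene and the Leydig medians -0.12 and -0.27, in the authors' deposited tables. Cyp11a1, of Leydig cells, stood at -0.12 and -1.12, and Amh gave no finite ratio at leptotene/zygotene. The part of these cells in the Ehmt1 folds was not tested.

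**Figure D4:**
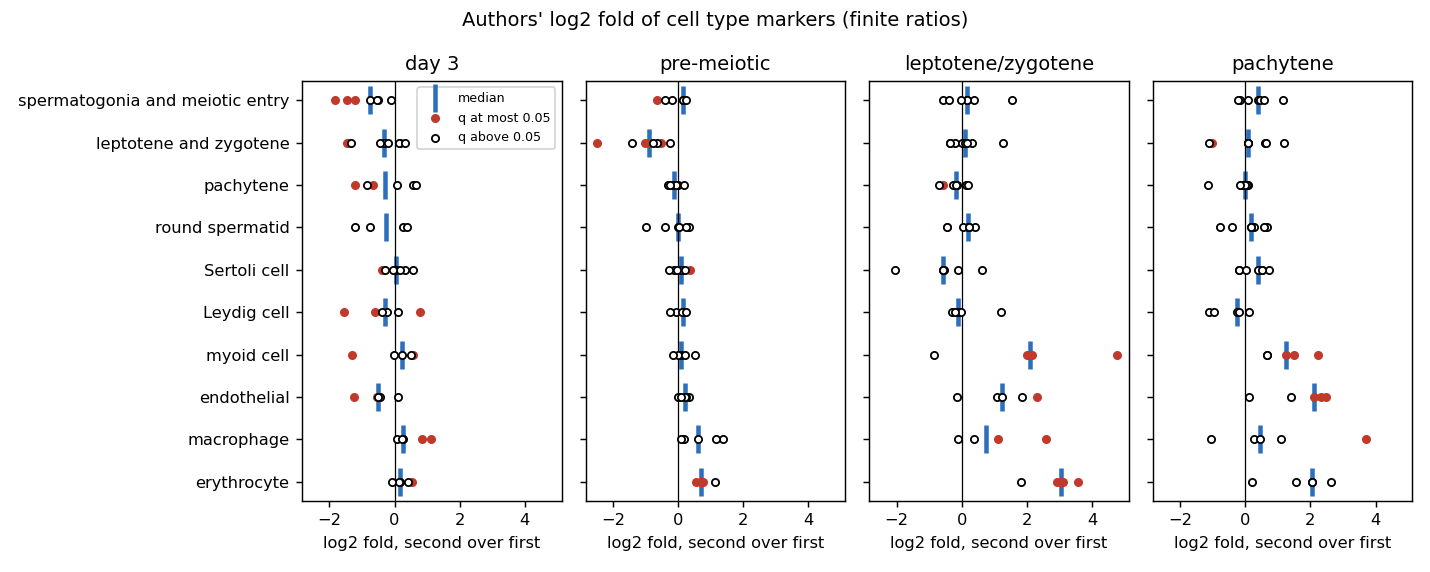
Authors' log2 fold (x axis) of each marker of 10 cell types with a finite ratio, by table; filled points have q at most 0.05 and blue ticks are medians. Myoid, endothelial and red cell markers lie mostly above 0 at leptotene/zygotene and pachytene, with medians from 1.23 to 3.05, and leptotene and zygotene markers lie below 0 in the pre-meiotic table, with a median of -0.89.

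Suv39h1 is the X-linked member and was set beside other X-linked genes with an implied error of at most 0.5. At day 3 the 904 X-linked genes had a median log2 fold of -0.01 and the 15901 autosomal genes one of 0.04, and 564 of the X-linked genes lay below Suv39h1, in the authors' deposited table. In the pre-meiotic table the 678 X-linked genes had a median of -0.02, and 139 of them lay below Suv39h1. At leptotene/zygotene the medians were -0.17 for 422 X-linked and -0.07 for 10172 autosomal genes, and 275 of the 422 lay below Suv39h1, in the authors' deposited table. At pachytene they were -0.07 for 346 X-linked and 0.04 for 10935 autosomal genes, and 305 of the 346 lay below Suv39h1, whose fold of 0.39 has an error as large as itself. At day 3 and leptotene/zygotene the fold of Suv39h1 lay within 1 implied error of the X-linked median. The condition order may differ between tables, so these positions are not counted over tables.

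Some folds may hold reads of neighbours or copies, since no step that keeps the strand is named and listed loci are shared. The locus of Suv39h2 also covers Dclre1c, a DNA repair nuclease, and the predicted gene Gm13184. Dclre1c fell by 1.19 on the log2 scale at day 3 (q = 5.99e-05, Cuffdiff, authors' deposited table), where Suv39h2 had 0.04, and stood at 0.41 in the pre-meiotic table (q = 0.513), where Suv39h2 had -0.34. At day 3 the fold of Suv39h2 was smaller than its implied error (0.19), so its sign there is not settled. In the pre-meiotic table these overlapping genes had folds of opposite sign, with neither called. In the other tables they had the same sign, with 0.21 for Dclre1c and 0.20 for Suv39h2 at leptotene/zygotene and -0.45 and -0.24 at pachytene, none of them called (authors' deposited tables). The locus of Setdb1 covers Lass2 and Gm10691; Lass2, a ceramide synthase gene, had log2 folds from -0.20 to 0.07 and was called in no table (authors' deposited tables). Suv39h1 shares its locus with Gm14820 and Cbx1 with Gm11517, and neither was called. Of 8 pseudogene symbols of the 9 genes in the gene name table, only Cbx3-ps3 has a row; it was tested at day 3 and pachytene and not called.

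Other genes of H3K9 methylation were taken from a list of 22 partners and a list of 12 demethylases, all tested in every table. At day 3, 1 partner was called higher and 9 lower, and 0 demethylases higher and 4 lower, in the authors' deposited table (Cuffdiff), where 14.8% of all tested genes were called. Among autosomal genes with an implied error of at most 0.5, 6.52% were called higher and 13.2% lower. Adnp, a zinc finger protein that binds HP1, stood at -2.74 (implied error 0.21) and Atrx, a remodeller that reads H3K9 trimethylation, at -1.85 (implied error 0.15) on the log2 scale, and for both the authors' deposited table gives q as 0. Atf7ip, which stabilises SETDB1, fell by 1.16 on the log2 scale, and Wiz and Zfp644, which bind EHMT1 and EHMT2, fell by 0.66 and 0.40, in the authors' deposited table. Uhrf1, which reads H3K9 and DNA methylation, stood at -0.82, the methyltransferase Prdm2 at -0.75, Suv420h1 (now Kmt5b) at -0.65 and Trim33, a relative of Trim28, at -0.52, in the authors' deposited table. Suv420h2, now named Kmt5c, an H4K20 methyltransferase recruited by HP1, rose by 0.40 (q = 0.00226, Cuffdiff, authors' deposited table).

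The called demethylases were Jmjd1c at -0.98, Jhdm1d (now Kdm7a) at -0.82, Kdm4c at -0.69 and Kdm1b at -0.61 on the log2 scale, in the authors' deposited table. Of the genes called lower, 7 of the 9 partners and 4 of the 4 demethylases have loci over 50000 bp. So do 13 of all 22 partners and 9 of all 12 demethylases. The locus of Adnp, at 51609 bp, is close to that limit. In the length classes above 50000 bp, 22.4% and 28.5% of genes were called lower. Suv420h2 spans 7400 bp, and its fold was 0.08 from the median of its class. Measured in the same way, Adnp stood at -2.54 and Atrx at -1.59, and Zfp644 at -0.14. Median log2 folds were -0.22 over the 22 partners and -0.34 over the 12 demethylases, beside 0.03 over all tested genes; from the class medians they were -0.17 and -0.19. The part of locus length in these values was not tested.

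Of 22 partners and 12 demethylases 0 were called in the pre-meiotic table, where 1.15% of all tested genes were (authors' deposited table, Cuffdiff). Their median log2 folds were -0.03 and 0.03. At an unadjusted p of at most 0.05, 2 partners were lower and 3 demethylases higher. Of all tested genes, 10.5% passed that limit in either direction and 5.32% were lower. At leptotene/zygotene Adnp was higher, at 1.66 (q = 0.00408), and Cdyl, a chromodomain protein, lower, at -0.71 (q = 0.00174), by Cuffdiff in the authors' deposited table. At pachytene Trim66, a testis relative of Trim28, was lower, at -1.13 (q = 0.00111, Cuffdiff, authors' deposited table). Of the demethylases 0 were called in these tables, where 2.14% and 1.63% of all tested genes were. At an unadjusted p of at most 0.05, 1 demethylase was higher and 1 lower at leptotene/zygotene, and 0 passed at pachytene. Of the partners, 1 was higher and 3 were lower at that limit in each of these tables. Of all tested genes, 11.5% passed it at leptotene/zygotene and 11.3% at pachytene, in either direction. List medians ran from -0.06 to -0.02 on the log2 scale in both tables.

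**Figure D5:**
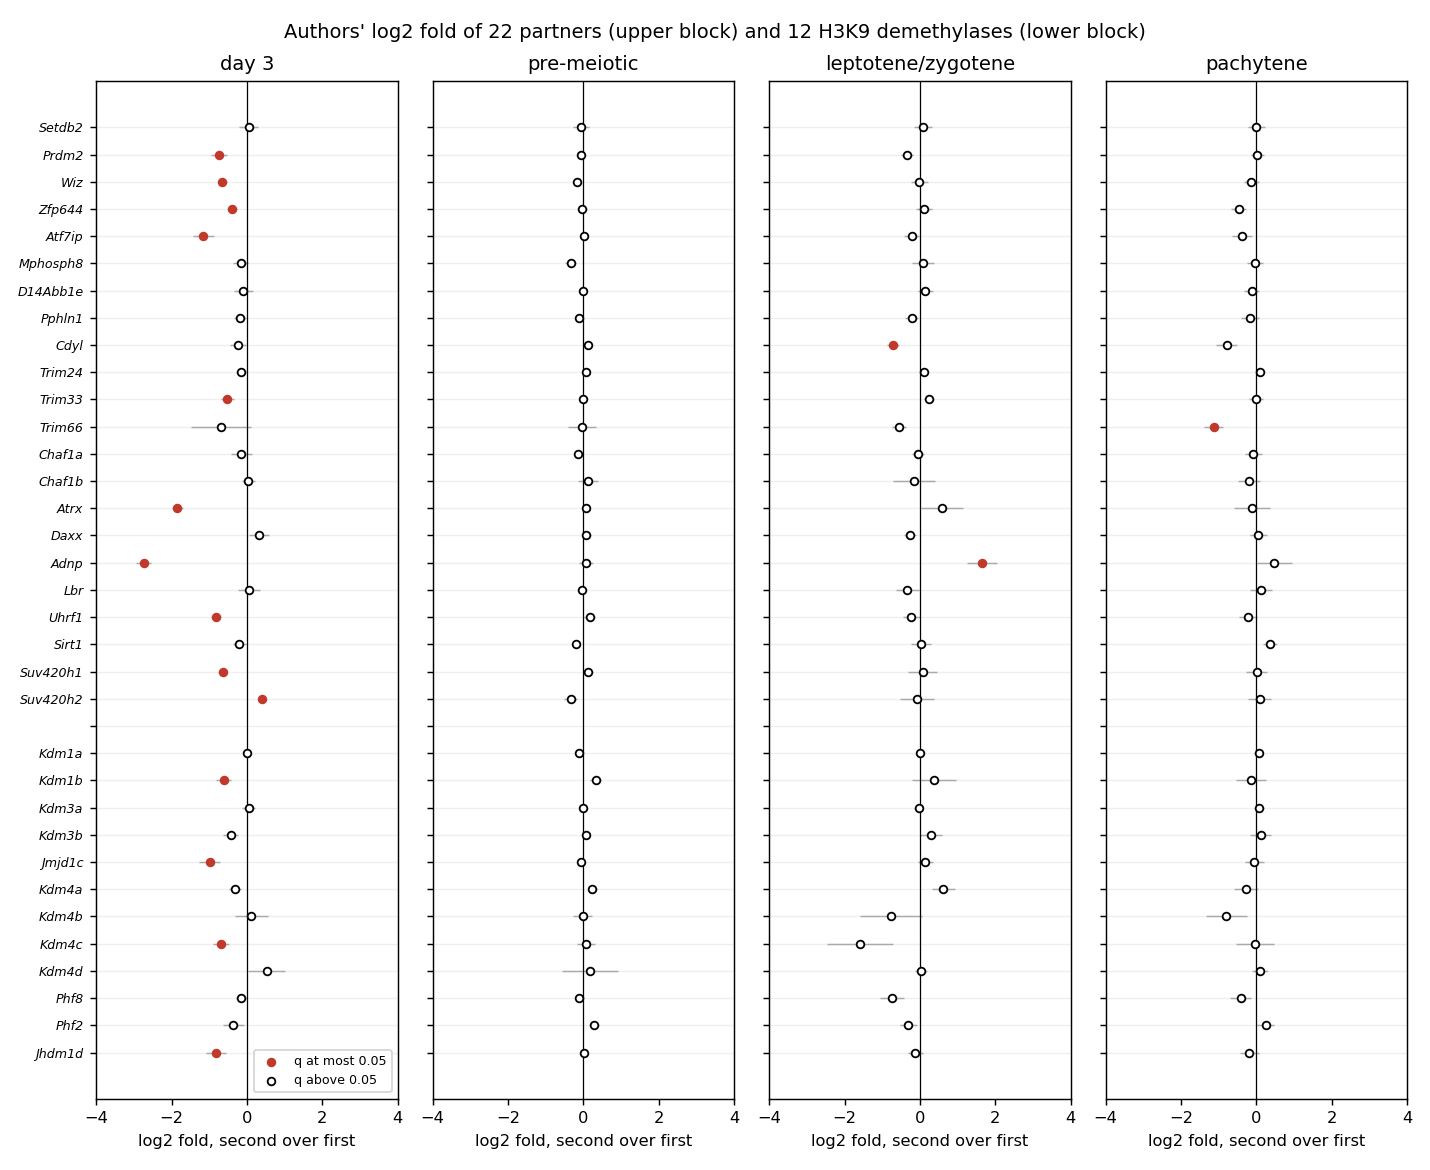
Authors' log2 fold (x axis) of 22 partners (upper block) and 12 H3K9 demethylases (lower block) in each table, with bars of 1 implied error; filled points have q at most 0.05. Most calls are at day 3 and lie below 0, led by Adnp (-2.74) and Atrx (-1.85), and the pre-meiotic table has none.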

How the data were processed

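Per the labels' protocols, mRNA libraries came from Trizol extracts and the TruSeq RNA kit. Those protocols describe nothing that would retain strand. Cuffdiff, Cufflinks 1.1.0, TopHat 1.3.0 and Bowtie 0.12.7 are named in the submitters' processing notes; the build behind the tables was not given in any of the sources used here, and their coordinates are printed counted from 1. The values used are the authors' own comparison of conditions: a deposited log2 fold per gene, its score (the test statistic), and its deposited p-value and q-value. The 8 columns of FPKM that the authors deposited were not used, since no source says which genotype each holds. The design planned log2 folds from FPKM with a pseudocount; the authors' log2 fold took their place, and comparisons of levels between stages and the search for genes of similar pattern were dropped.

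Implied errors, intervals (normal, from the implied error alone), pair differences and medians were computed with Python 3.11.15, numpy 2.4.6 and pandas 2.3.3, in code tested on simulated data. Infinite ratios were left out of medians and fold counts. With 1 library per genotype and stage there are no replicates, and no test was added; depth is unknown. Symbols were matched as listed or through the gene name table, where 31840 of 36806 IDs were found. Named genes are the 9 members, called partners and demethylases, Ago4, the defining markers Sycp3, Prm1, Cyp11a1, Amh, Acta2 and Pecam1, and X-linked genes as a group. Setdb2, other named markers and neighbours of shared loci were named after their values were seen. Members and lists were chosen with earlier results of these data known. Rhox5, of the Sertoli list, was not matched. The alternatives were other call and fold limits and, chosen after seeing the data, centring of the folds and a limit on the implied error.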

Additional observations from a re-analysis of the deposited data

How the results depend on the processing

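No paired analysis was possible because the labels do not say which condition of a table is which genotype, so the tables could not be joined by genotype. In the authors' deposited tables, an unadjusted p of at most 0.05 in place of q called 4 members in the pre-meiotic table and 1 at pachytene, against 0 each, and a q of at most 0.01 changed no count. A limit of 2-fold left 0 members past it at day 3, leptotene/zygotene and pachytene. Measured from the median of their locus length class, 1 member was past 1.5-fold at day 3, against 2. Of 40 alternative values of the counts and medians, 34 stayed close to the value given and 6 did not. Of 100 values for single genes, pairs and shares of all genes 8 moved. Values near 0 changed sign: 3 list medians, among them that of the demethylases at pachytene (-0.04 over all tested members, 0.0046 over those with an implied error of at most 0.5), and 9 values of genes or pairs, 0 of them for a called gene. Among the shares, genes with an implied error of at most 0.5 were past 1.5-fold less often, at 5.63% in the pre-meiotic table, 11.3% at leptotene/zygotene and 12.2% at pachytene. The planned pseudocounts, filters on FPKM and scalings between stages were not run, since FPKM was not used. The wide errors of Ehmt1 at leptotene/zygotene and pachytene limit what its folds can show.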
